A study of Mus musculus with 11 samples.

Results

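The genes of antigen presentation by the major histocompatibility complex (MHC, named H2 in the mouse) were examined in 11 lymphomas of lymph node. Every array probe whose gene name began with H2- was taken, together with those of Cd74, Ciita, B2m, Tap1, Tap2, Tapbp and Nlrc5. This gave 48 genes with 62 probes, of 31473 gene names and 39429 probes on the array. Of the 48, 39 were well above background on at least 3 arrays and were tested among 20181 genes. The other 9 were nonclassical class I genes (H2-M1, H2-M10.1, H2-M10.2, H2-M10.3, H2-M10.4, H2-M10.6, H2-M5, H2-Q1 and H2-T3), whose probes were well above background on 0 to 2 arrays.

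Of the tumours, 4 were labelled plasma cell lymphoma (PCL), 3 mantle cell lymphoma (MCL) and 4 Burkitt lymphoma (BL), and they are named by type and number. The transgene c-myc-3'RR was shared by the 3 groups. It puts c-myc under the control region downstream of the immunoglobulin heavy chain genes, which is active in B cells. All tumours were heterozygous for p53, of the strain labelled Black 6, at the stage labelled mature B cell, and none was normal tissue. Each RNA was hybridised to a one-colour array. Ages are not given in the sources used here, and the labels do not state that every tumour came from its own mouse, so p-values here describe only how these samples vary, in part perhaps for technical reasons. The types were hybridised on separate slides, 1 per type, so type and slide cannot be told apart. In bulk tumours, fewer cells of a type and less RNA per cell cannot be told apart either.

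MHC class I molecules, made of a heavy chain and the light chain beta-2 microglobulin, show peptides from the cytosol to cytotoxic T cells. The transporter of Tap1 and Tap2 brings those peptides into the endoplasmic reticulum, and tapasin (Tapbp) helps to load them. Class II molecules, made of an alpha and a beta chain, show peptides from endosomes to helper T cells and are kept by B cells until plasma cell differentiation. Nlrc5 and Ciita are related transactivators, Nlrc5 of class I genes and Ciita of class II genes, which act through a shared promoter module with an X box and a Y box.

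Probe sequences are shown where a result depends on what the probe can hybridise to. Positions follow mm9, the mouse build named in the file headers. The less bright Nlrc5 probe spanned an exon junction within chr8:97030478-97030624, on the plus strand. The probes of H2-M9 (chr17:36777646-36777705, minus strand) and H2-M11 (chr17:36685754-36685813, plus strand) are those of genes whose signal differed between types. The probe of H2-Ea-ps (chr17:34481469-34481528, minus strand) is that of a gene whose signal was well above background in some tumours only. The H2-T18 probe used and the one set beside it, of 3 in all, had no position in the files, and the annotation places the gene on chromosome 17. Capitals mark, in H2-T18, the longest uninterrupted run that these 2 probes share, of 34 bases.
Nlrc5, less bright probe: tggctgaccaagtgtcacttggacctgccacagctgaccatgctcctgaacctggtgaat
H2-M9: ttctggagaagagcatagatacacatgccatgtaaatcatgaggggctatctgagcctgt
H2-M11: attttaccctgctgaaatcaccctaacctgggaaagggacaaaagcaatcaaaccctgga
H2-T18, probe used: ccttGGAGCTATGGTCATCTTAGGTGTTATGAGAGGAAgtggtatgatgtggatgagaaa
H2-T18, second probe: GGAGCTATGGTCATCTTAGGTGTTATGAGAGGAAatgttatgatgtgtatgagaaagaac
H2-Ea-ps: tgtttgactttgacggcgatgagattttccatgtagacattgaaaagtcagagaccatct

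Both transactivators had lower signals in PCL than in MCL, as did 4 nonclassical class I genes, and these 6 were the members that passed the test. For 2 of them, H2-M9 and H2-T18, only MCL was high enough to meet the filter, so a difference there had to appear. With at least 6 arrays well above background required, 36 members were tested and Ciita, H2-M11, H2-Q8 and Nlrc5 were called. These 4 of 36 stand beside 1359 of all 18363 genes called under that filter, 958 of them lower in PCL. Signals are log2 of an intensity relative to the array's 75th percentile, and a difference counted as called at a Benjamini-Hochberg adjusted p under 0.05 in limma over 20181 genes. Of the 39 tested members, 6 (15.4%) were called between PCL and MCL, all lower in PCL, beside 6.94% of all genes called in either direction and 4.82% called lower. At an unadjusted p under 0.05 there were 19 of the 39, 18 of them lower in PCL, and 4918 of all 20181 genes. The median difference of the 39 was -0.80 log2 units, and that of all genes was -0.03. In 32 of 39 the mean was lower in PCL, beside 52% of all genes. Without MCL1, which had the highest signal of the 11 tumours in 32 of the 39 genes, 23 of 39 were lower in PCL, 4 were called and 7 had an unadjusted p under 0.05. Of all 20181 genes, 693 were called in that fit and 4683 had an unadjusted p under 0.05.

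Between PCL and BL limma called 0 of the 39 members, beside 0.659% of all genes. At an unadjusted p under 0.05 there were 12 of the 39 and 3543 of all 20181 genes. The mean was again lower in PCL for 32 of 39 members, where 41.3% of all genes were lower. PCL enters both comparisons, so these counts share samples. Between MCL and BL 2 members were called, H2-T18 and H2-M11, both higher in MCL, which is 5.13% of the 39 beside 6.64% of all genes called and 6.45% called higher. H2-T18 met the filter only through its MCL signals. With at least 6 arrays well above background required, 1 of 36 members was called there, H2-M11, beside 1261 of all 18363 genes. A moderated F test for any difference among the 3 types called 6 of the 39, beside 8.43% of all genes. With the stricter filter it called 4 of 36 members, beside 1635 of all 18363 genes.

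**Figure D1:**
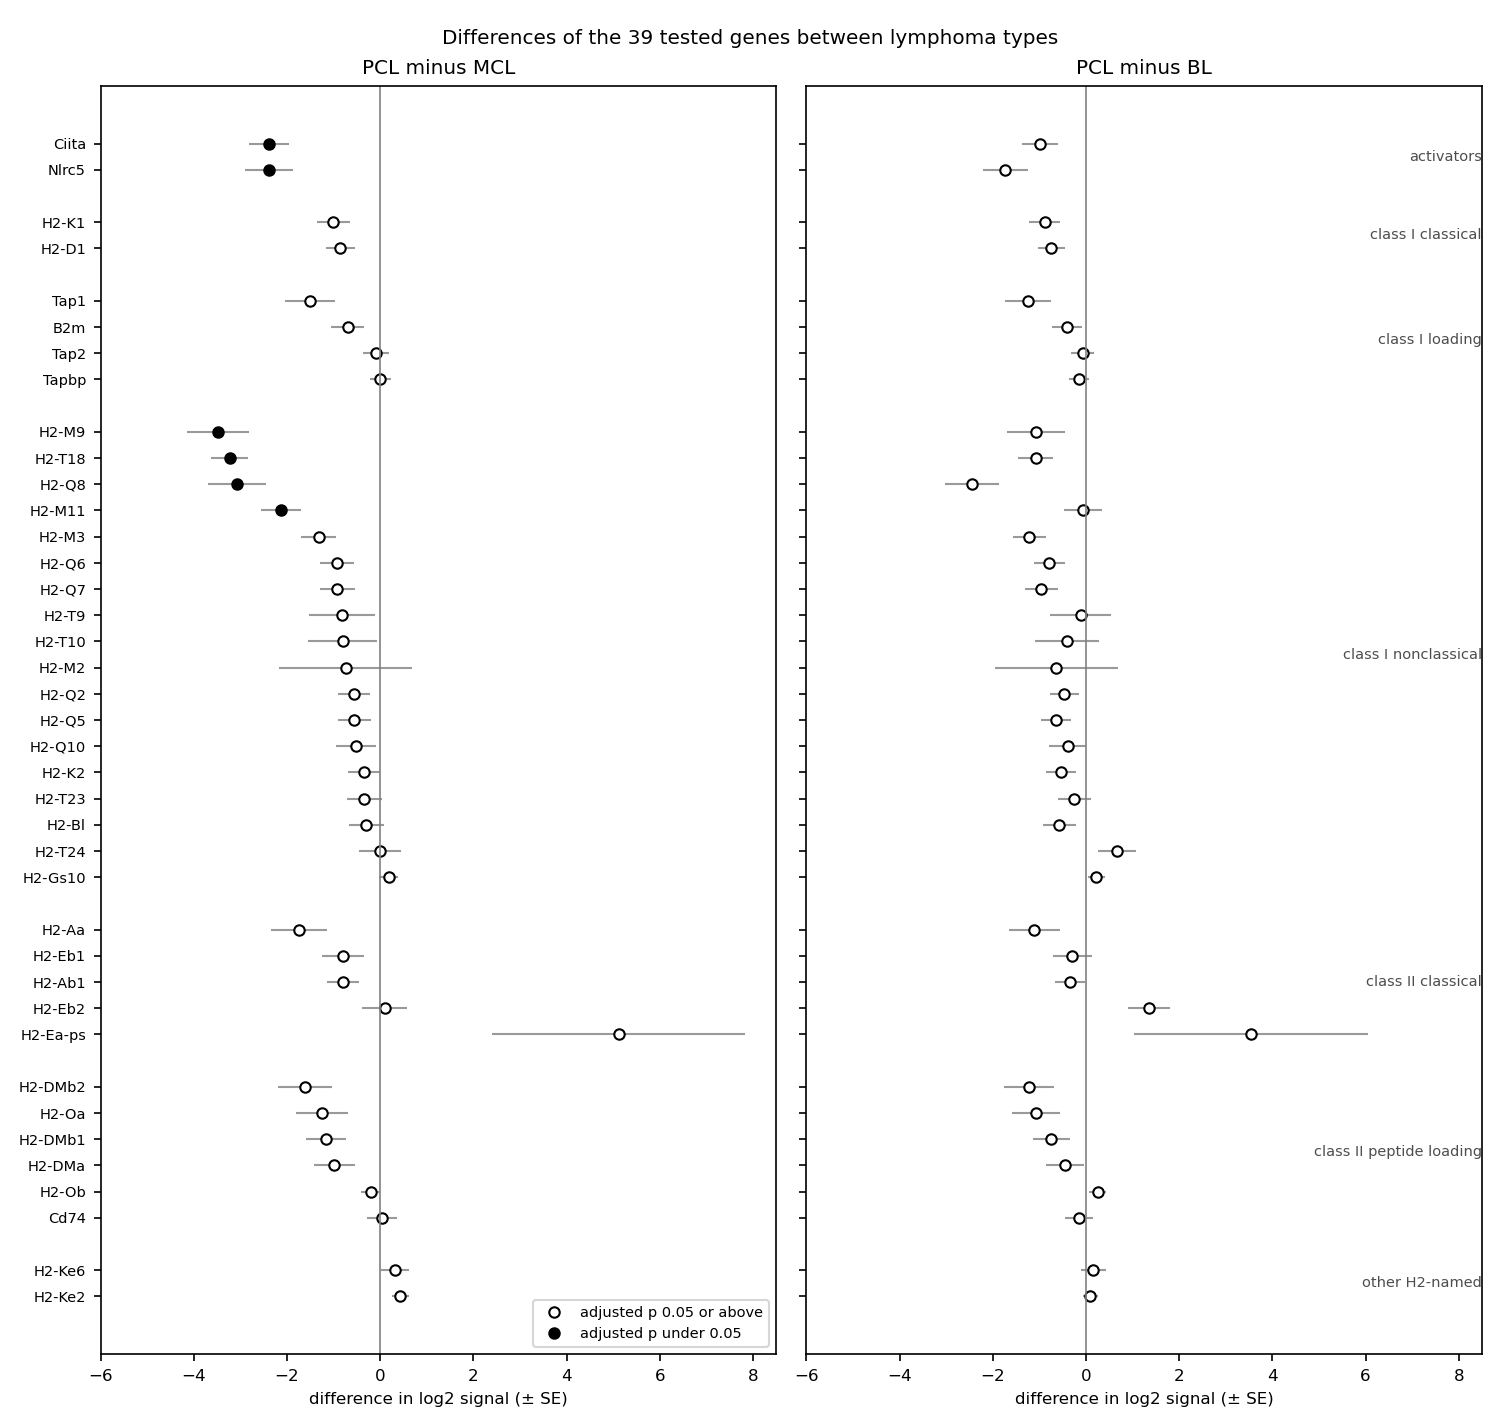
Difference in log2 signal between PCL and MCL (left) and between PCL and BL (right) for each of the 39 tested genes, grouped by class, with bars for the standard error. Filled points have an adjusted p under 0.05: 6 between PCL and MCL, all below 0, and 0 between PCL and BL.

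Ciita, the class II transactivator, had log2 signals of -1.22, -2.45, -2.26 and -2.83 in PCL1 to PCL4, against 1.05, -0.07 and -0.40 in MCL1 to MCL3 and -1.40, -1.47, -1.16 and -0.80 in BL1 to BL4. All 4 PCL values lay below all 3 MCL values, and PCL1 lay among the BL values. The difference between PCL and MCL was -2.39 ± 0.43 (SE), which makes MCL 5.23-fold higher (limma, adjusted p = 0.015). It was -0.99 ± 0.40 between PCL and BL (adjusted p = 0.234) and 1.40 ± 0.43 between MCL and BL (adjusted p = 0.0887), where every MCL value lay above every BL value and the difference passed without PCL1 (adjusted p = 0.0443). The call of Ciita between PCL and MCL was lost without PCL2 (adjusted p = 0.0522) and with normexp background correction (-1.89, adjusted p = 0.0603).

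Nlrc5, the class I transactivator, had log2 signals of 0.83, 0.12, 0.24 and -0.36 in PCL1 to PCL4, against 3.78, 2.36 and 1.64 in MCL1 to MCL3 and 1.38, 1.76, 2.84 and 1.78 in BL1 to BL4. Every PCL value lay below every MCL and every BL value. PCL was lower than MCL by a log2 difference of -2.39 ± 0.52 (SE, adjusted p = 0.0269), 5.23-fold higher in MCL, and differed from BL by -1.73 ± 0.48 (adjusted p = 0.11). The less bright Nlrc5 probe gave -0.78 between PCL and MCL and -0.96 between PCL and BL. The call between PCL and MCL was lost in 9 of 23 alternatives, with adjusted p-values up to 0.089. Among these were the fits without PCL2, PCL3, PCL4, MCL1 or MCL2, at 0.0772, 0.0643, 0.0799, 0.0621 and 0.0683, and with the mean of its probes the difference was -1.58 (adjusted p = 0.0535).

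**Figure D2:**
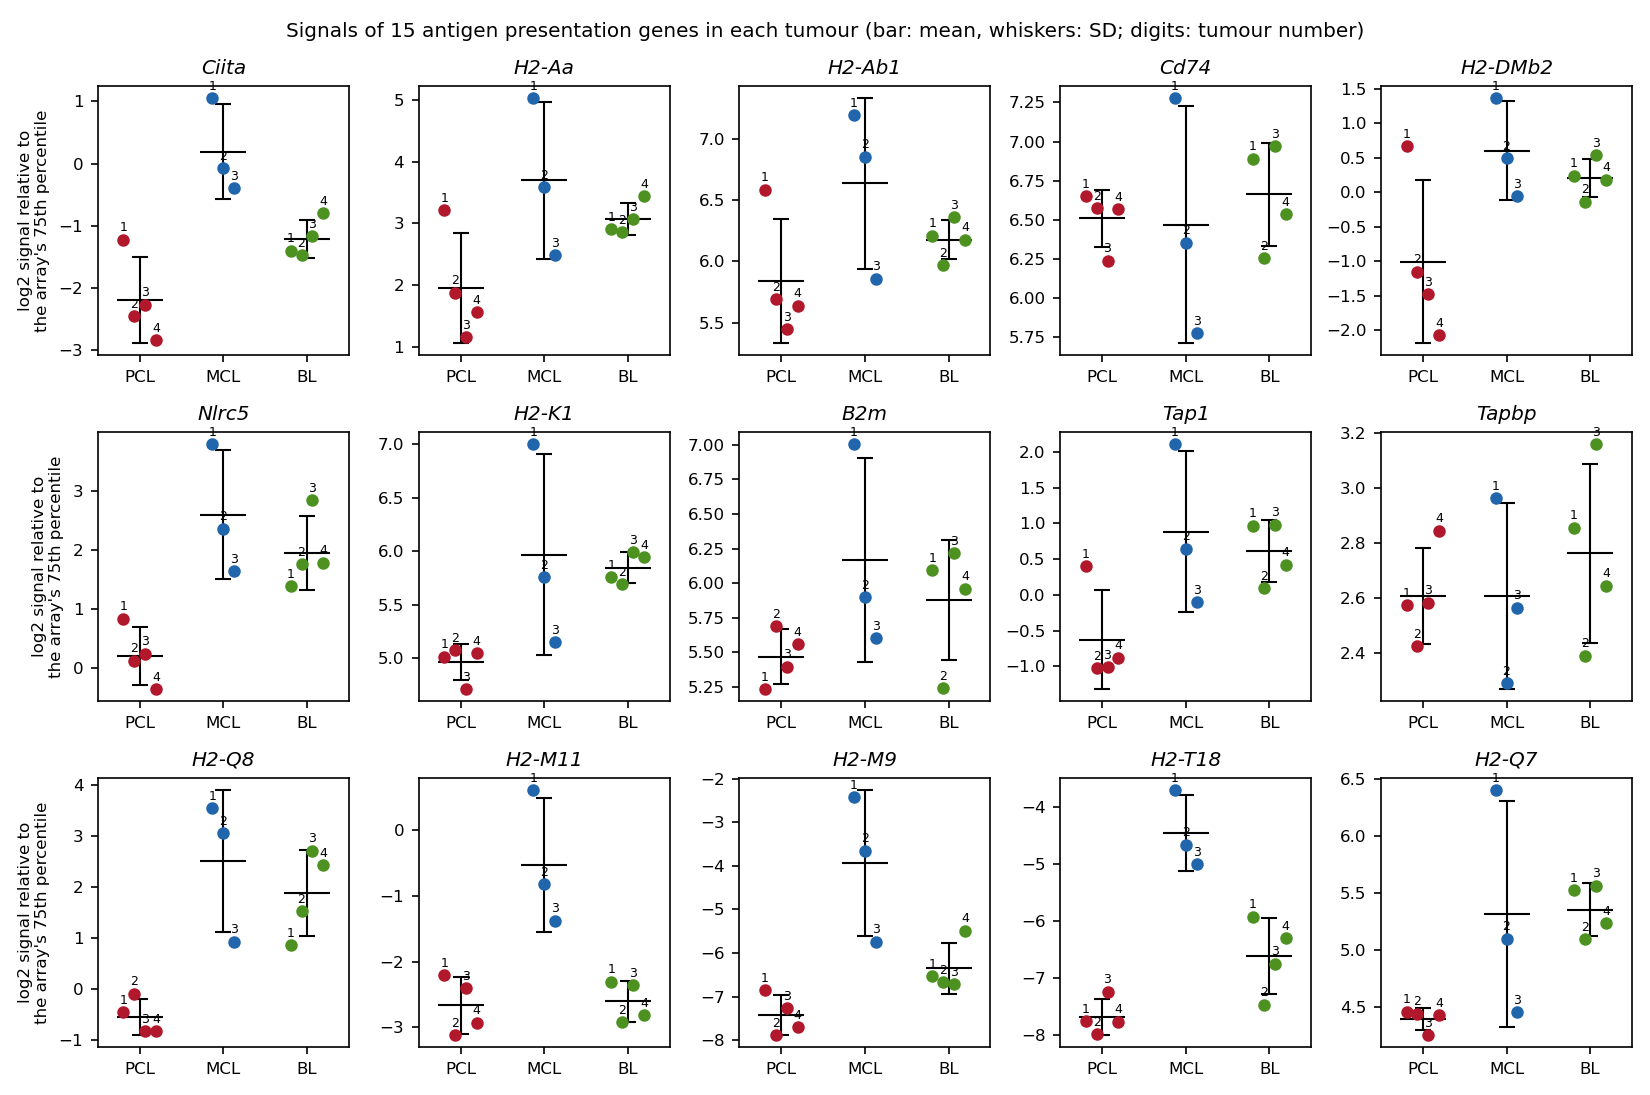
Log2 signal relative to the array's 75th percentile (y axis) of 15 genes in each tumour, with class II and its transactivator in the top row, class I and its transactivator in the middle row and nonclassical class I genes in the bottom row. Points are tumours with their number, bars are means and whiskers are SDs (n = 4 PCL, 3 MCL and 4 BL); each panel has its own scale. The PCL points of Nlrc5 and H2-Q8 lie below all others, whereas Cd74 and Tapbp overlap among the types.

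The classical class I heavy chain genes H2-K1 and H2-D1 were lower in every PCL than in every MCL and BL tumour, and neither passed the test. H2-K1 had log2 signals of 5.02, 5.08, 4.71 and 5.05 in PCL, against 7.0, 5.76 and 5.15 in MCL and 5.76, 5.69, 5.99 and 5.95 in BL. H2-D1 had 5.0, 5.0, 4.84 and 5.15 in PCL, against 6.66, 5.72 and 5.17 in MCL and 5.96, 5.55, 6.01 and 5.46 in BL. MCL3 came close to the PCL values in both genes, and MCL1 stood above all tumours. The difference between PCL and MCL was -1.0 ± 0.36 (SE, adjusted p = 0.119) for H2-K1 and -0.85 ± 0.31 (adjusted p = 0.132) for H2-D1, and between PCL and BL it was -0.88 (adjusted p = 0.207) and -0.75 (adjusted p = 0.221). Arrays that do not overlap were found for 22.9% of all genes between PCL and MCL and for 11% between PCL and BL. A second H2-K1 probe gave -0.75 between PCL and MCL. The H2-K1 difference between PCL and MCL passed the test without MCL3 (-1.41, adjusted p = 0.0475), whereas without MCL1 the differences were -0.49 for H2-K1 and -0.45 for H2-D1.

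Of the genes that complete or load class I molecules, Tap1 and B2m had lower means in PCL and Tap2 and Tapbp had nearly equal means. None passed the test (0 of 4), and 1 had an unadjusted p under 0.05 between PCL and MCL, beside 4918 of all 20181 genes. Tap1, a subunit of the peptide transporter, had log2 signals of 0.40, -1.03, -1.01 and -0.88 in PCL, against 2.10, 0.64 and -0.11 in MCL and 0.97, 0.09, 0.98 and 0.42 in BL. PCL2 to PCL4 lay below all other tumours and PCL1 lay among them. The Tap1 difference was -1.51 ± 0.53 (SE, adjusted p = 0.115) between PCL and MCL and -1.24 ± 0.49 (adjusted p = 0.227) between PCL and BL, and without PCL1 it was called between PCL and MCL (-1.85, adjusted p = 0.0435). Without MCL1 it was -0.90 there. B2m, the light chain, had 5.23, 5.69, 5.40 and 5.56 in PCL, against 7.0, 5.90 and 5.60 in MCL and 6.09, 5.24, 6.22 and 5.96 in BL. These groups overlapped, with differences of -0.70 (adjusted p = 0.247, and -0.28 without MCL1) from MCL and -0.41 (adjusted p = 0.547) from BL.

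Tap2, the other transporter subunit, had log2 signals of 4.08, 3.17, 3.27 and 3.40 in PCL, against 4.09, 3.11 and 3.48 in MCL and 3.57, 3.43, 3.62 and 3.59 in BL. Tapbp had 2.57, 2.43, 2.58 and 2.84 in PCL, against 2.96, 2.29 and 2.57 in MCL and 2.86, 2.39, 3.16 and 2.65 in BL. The types overlapped in both, and the differences between PCL and MCL were -0.085 ± 0.27 (SE) for Tap2 and 0.00057 ± 0.23 for Tapbp. The SE of these differences sets the size of change that 11 arrays could show.

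Nonclassical class I genes, which encode heavy chains with restricted ligands or expression, held 4 of the 6 called differences. For 2 of these 4, H2-M9 and H2-T18, only MCL was high enough to meet the filter, so those calls do not characterise the class. Of 27, 18 were tested, and 4 of these were called lower in PCL than in MCL, beside 4.82% of all genes. The differences were below 0 in 17 of 18 (median -0.77), beside 52% of all genes. MCL1 was the highest tumour in 16 of the 18. Without MCL1, 23 of all 39 tested members were lower in PCL, instead of 32. H2-Q8, of the Qa-2 group, had log2 signals of -0.46, -0.10, -0.84 and -0.83 in PCL, against 3.55, 3.06 and 0.93 in MCL and 0.86, 1.52, 2.72 and 2.43 in BL. All PCL values lay below all others, and MCL3 lay with the lower BL values. MCL was 8.40-fold higher than PCL (difference -3.07 ± 0.62, SE, adjusted p = 0.0226), and PCL differed from BL by -2.44 ± 0.58 (adjusted p = 0.083, and 0.0475 without MCL3). H2-Q8 lost its call between PCL and MCL without PCL2, PCL3, PCL4, MCL1 or MCL2 (adjusted p = 0.0561, 0.0612, 0.0697, 0.0646 and 0.078).

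H2-M11, an M region gene, had log2 signals of -2.21, -3.12, -2.41 and -2.93 in PCL, against 0.61, -0.83 and -1.38 in MCL and -2.31, -2.92, -2.36 and -2.82 in BL. The 3 MCL values lay above all others, and PCL and BL occupied the same range. The differences were -2.13 ± 0.43 (SE, adjusted p = 0.0225) between PCL and MCL, 2.07 ± 0.43 (adjusted p = 0.0198) between MCL and BL, and -0.06 ± 0.40 (adjusted p = 0.957) between PCL and BL. The call against PCL was lost without PCL2, PCL4 or MCL2 (adjusted p = 0.0704, 0.0698 and 0.054) and that against BL without BL2 or BL4 (0.0608 and 0.0533). With normexp the adjusted p was 0.094 against PCL (-1.69) and 0.188 against BL (1.68), and with only the 2 types fitted it was 0.0615 and 0.0796. Scaling to the array's median gave 0.0662 against BL.

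H2-M9 and H2-T18 were dim, being well above background in 3 of 3 MCL, 1 of 4 BL and 0 of 4 PCL tumours. H2-M9 had log2 signals of -6.85, -7.88, -7.27 and -7.70 in PCL, against -2.43, -3.65 and -5.74 in MCL and -6.54, -6.67, -6.71 and -5.49 in BL. H2-T18 had -7.75, -7.98, -7.24 and -7.76 in PCL, against -3.70, -4.66 and -4.99 in MCL and -5.92, -7.46, -6.74 and -6.29 in BL. MCL was the highest type in both, and the PCL values only bound the level. For each PCL array the level was bounded by the dimmest signal that any probe well above background had there, or by the probe's own signal if greater, and the MCL mean was set against the mean of these bounds. By this measure MCL was at least 3.18-fold higher than PCL for H2-M9 and at least 2.23-fold higher for H2-T18. The adjusted p-values of 0.0175 for H2-M9 and 0.00355 for H2-T18 belong to limma's differences of the measured signals and not to these bounds. With 1 of 4 BL tumours above background, the differences of MCL from BL rest on dim signals too. They were 2.15 ± 0.40 (SE, adjusted p = 0.0125) for H2-T18, which was 0.33 (adjusted p = 0.94) with the background correction normexp, and 2.41 ± 0.66 (adjusted p = 0.0604, and 0.0109 without MCL3) for H2-M9.

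With normexp the differences between PCL and MCL were -0.67 for H2-M9 (adjusted p = 0.646) and -0.27 for H2-T18 (adjusted p = 0.824), both smaller than the bounds above. H2-M9 also lost its call without PCL2, PCL4 or MCL2 (adjusted p = 0.0587, 0.0573 and 0.0622). The second H2-M9 probe and both further H2-T18 probes were well above background on 0 arrays. The second H2-T18 probe printed above matched the used one at 53 of 56 overlapping bases. H2-Q10 differed by -0.52 between PCL and MCL, a value that changed sign without MCL1.

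The remaining 14 tested nonclassical genes had adjusted p-values of at least 0.0667 between PCL and MCL. The widest range over tumours among them was that of H2-M2, well above background on 4 arrays, with log2 signals of -7.95, -7.13, -5.06 and -4.93 in PCL, against -2.25, -6.56 and -7.77 in MCL and -7.34, -7.20, -3.50 and -4.49 in BL. H2-T9 had -0.39, -0.80, -0.91 and -0.80 in PCL, against 2.02, -1.44 and -0.32 in MCL and -0.62, -1.59, 0.38 and -0.62 in BL. H2-T10 had 0.27, -0.77, -0.87 and -0.64 in PCL, against 2.11, -0.76 and -0.46 in MCL and -0.31, -1.48, 0.55 and 0.87 in BL. In all 3, MCL1 was the highest tumour. MCL2 and MCL3 lay within the PCL range in H2-T10, whereas in H2-T9 MCL2 lay below and MCL3 above every PCL tumour, and in H2-M2 MCL2 and MCL3 lay within the PCL range. The H2-T9 probe carries an accession of H2-T22 in the reference table, so its signal may come from either gene. Their differences between PCL and MCL, -0.74, -0.81 and -0.80, changed sign without MCL1, at 0.89, 0.15 and 0.11.

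Class I genes are near copies of each other, and signals of single H2-Q, H2-K, H2-D and H2-T genes are uncertain for that reason. The H2-Q7 probe was listed for transcripts of H2-Q7 and H2-Q9. It shared 28 consecutive bases with a probe of the pseudogene H2-K2, and the H2-T23 probe shared 29 with the second H2-K1 probe. In PCL, H2-Q7, H2-Q6, H2-Q5 and H2-K2 differed from BL by -0.96, -0.79, -0.64 and -0.54, none of them called. Over all 18 tested nonclassical genes that difference ranged from -2.44 (H2-Q8) to 0.66 (H2-T24), so near copies did not all give similar values.

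No class II gene was called by limma in any comparison (0 of 11). At an unadjusted p under 0.05 there were 6 between PCL and MCL, 2 between PCL and BL and 2 between MCL and BL. Of all 20181 genes, 4918, 3543 and 3726 were under that level in the same comparisons. The alpha and beta chains of I-A, H2-Aa and H2-Ab1, were lowest in PCL2, PCL3 and PCL4. H2-Aa had log2 signals of 3.22, 1.88, 1.16 and 1.57 in PCL, against 5.02, 3.59 and 2.49 in MCL and 2.90, 2.86, 3.07 and 3.44 in BL. H2-Ab1 had 6.59, 5.69, 5.44 and 5.64 in PCL, against 7.20, 6.86 and 5.86 in MCL and 6.21, 5.97, 6.36 and 6.18 in BL. PCL1 lay at the level of the MCL and BL tumours in both. The differences between PCL and MCL were -1.74 ± 0.59 (SE, adjusted p = 0.107) for H2-Aa and -0.80 ± 0.35 (adjusted p = 0.195) for H2-Ab1, and a second H2-Ab1 probe gave -0.81. Without MCL1 these differences were -1.08 for H2-Aa and -0.52 for H2-Ab1. Between PCL and BL H2-Aa differed by -1.11 (adjusted p = 0.331).

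H2-Eb1, the beta chain of I-E, had log2 signals of 6.58, 5.39, 5.11 and 5.04 in PCL, against 7.10, 6.08 and 5.81 in MCL and 6.09, 5.29, 6.35 and 5.55 in BL, a difference of -0.80 ± 0.45 between PCL and MCL (adjusted p = 0.305, and -0.41 without MCL1). H2-Eb2, a related beta chain gene, had 1.34, 0.34, 0.20 and 0.26 in PCL, against 1.16, 0.54 and -0.39 in MCL and -1.46, 0.24, -0.94 and -1.10 in BL. Its order was different: 3 of 4 BL tumours were below all others, with differences from BL of 1.35 (adjusted p = 0.158) in PCL and 1.25 (adjusted p = 0.187) in MCL. Between PCL and MCL H2-Eb2 differed by 0.10 ± 0.48, which changed sign without PCL1 or without MCL3.

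H2-Ea-ps, now H2-Ea, is the gene of the I-E alpha chain. Inbred C57BL/6 mice carry a deletion that silences it, and the annotation of that strain lists it as a transcribed pseudogene. Its probe was well above background in 7 of the 11 tumours. It had log2 signals of 1.68, -0.29, -0.54 and -0.59 in PCL, against -7.85, -7.86 and 0.55 in MCL and 0.99, -7.97, 0.74 and -7.68 in BL. The signal was thus near background in MCL1, MCL2, BL2 and BL4, and all 4 PCL tumours had it. Its spread within MCL and BL was wide, and the differences of 5.12 ± 2.72 (SE, adjusted p = 0.281) between PCL and MCL and 3.54 ± 2.52 (adjusted p = 0.506) between PCL and BL did not pass the test. H2-Eb1 and H2-Aa were well above background on all 11 arrays, those 4 tumours included. The labels give the strain as Black 6 and no more of the genetic background. Whether H2 alleles differed between these tumours was not tested, and the signal of any H2 probe could depend on the allele.

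**Figure D3:**
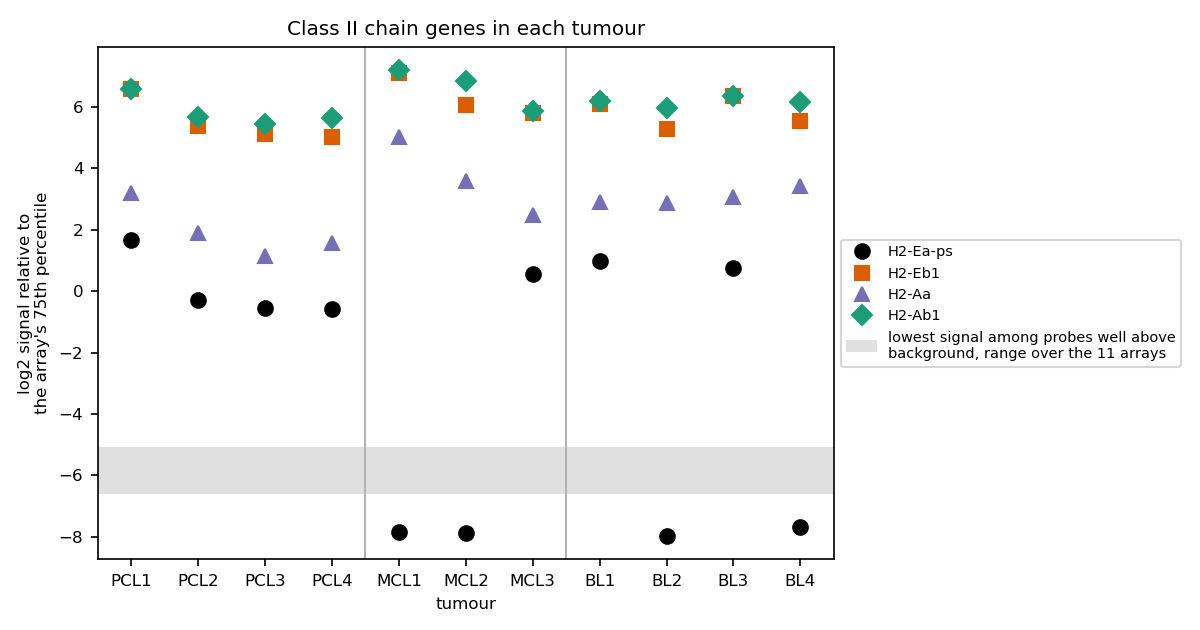
Log2 signal relative to the array's 75th percentile (y axis) of 4 class II chain genes in each of the 11 tumours (x axis); levels can be compared between tumours but not between genes, which have different probes. H2-Ea-ps lies at -7.68 or below in MCL1, MCL2, BL2 and BL4 and at -0.59 or above in the other tumours, while H2-Eb1, H2-Aa and H2-Ab1 are above 1 in all.

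The genes that load class II molecules were, apart from Cd74 and H2-Ob, lower in PCL2 to PCL4 than in every MCL tumour. H2-DMa and H2-DMb1 encode chains of H2-DM, which exchanges peptides, as does H2-DMb2. H2-DMb2 had log2 signals of 0.67, -1.15, -1.48 and -2.08 in PCL, against 1.37, 0.49 and -0.06 in MCL and 0.24, -0.14, 0.54 and 0.19 in BL. H2-DMb1 had 3.47, 2.27, 2.00 and 1.78 in PCL, against 4.23, 3.47 and 2.92 in MCL and 2.93, 2.78, 3.38 and 3.40 in BL. H2-DMa had 2.47, 1.15, 1.06 and 0.93 in PCL, against 2.97, 2.30 and 1.89 in MCL and 2.27, 1.20, 2.26 and 1.70 in BL. In each of these, PCL1 lay within the range of the other types and PCL2 to PCL4 lay below it. The differences between PCL and MCL were -1.61 ± 0.58 (SE, adjusted p = 0.123) for H2-DMb2, -1.16 ± 0.43 (adjusted p = 0.131) for H2-DMb1 and -0.98 ± 0.43 (adjusted p = 0.197) for H2-DMa. Between PCL and BL H2-DMb2 differed by -1.22 (adjusted p = 0.276, and 0.027 without PCL1).

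H2-Oa and H2-Ob encode H2-DO, which restrains H2-DM. H2-Oa had log2 signals of 1.41, 0.19, -0.17 and 0.24 in PCL, against 3.19, 0.86 and 0.97 in MCL and 1.27, 1.40, 1.43 and 1.85 in BL, with differences of -1.25 ± 0.56 (SE, adjusted p = 0.201) from MCL and -1.07 ± 0.52 (adjusted p = 0.316) from BL. Without MCL1 the first of these was -0.49. H2-Ob had 2.43, 2.27, 2.71 and 2.51 in PCL, against 3.02, 2.36 and 2.67 in MCL and 2.30, 2.33, 1.97 and 2.30 in BL. The H2-Ob arrays of PCL and MCL overlapped (-0.20 ± 0.20, adjusted p = 0.575), and all MCL values lay above all BL values (0.46 ± 0.20, adjusted p = 0.255). Its less bright probes gave -0.88 and -0.65 between PCL and MCL. Cd74, the invariant chain that escorts class II molecules, had 6.65, 6.58, 6.24 and 6.57 in PCL, against 7.28, 6.35 and 5.78 in MCL and 6.89, 6.26, 6.97 and 6.53 in BL. PCL lay inside the MCL range, and the difference of 0.04 ± 0.33 (adjusted p = 0.953) changed sign with normexp correction, at -0.023, and without PCL1, MCL2 or MCL3.

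PCL1 differed from the other PCL tumours over the class II genes as a whole. After subtraction of each gene's 11-tumour mean, the median of the 11 class II genes was 0.50 in PCL1, -0.49 in PCL2, -0.74 in PCL3 and -0.82 in PCL4. In MCL1 to MCL3 it was 1.14, 0.46 and -0.05, and in BL1 to BL4 it was 0.12, -0.19, 0.41 and -0.02. When PCL1 was left out, 12 members were called lower in PCL than in MCL instead of 6. The additional 6 were H2-Aa (-2.16, adjusted p = 0.0336), H2-DMb2 (-2.17, adjusted p = 0.0106), H2-DMb1 (-1.52, adjusted p = 0.0219), H2-DMa (-1.34, adjusted p = 0.0391), Tap1 and H2-M3. PCL1 was singled out after its values were seen, and that fit also called 2463 of all genes, against 1401 with PCL1.

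The centred medians of the 24 tested class I heavy chain and loading genes did not set PCL1 apart in the same way. They were -0.24, -0.47, -0.50 and -0.30 in PCL1 to PCL4, against 1.37, -0.09 and -0.30 in MCL1 to MCL3 and 0.34, -0.34, 0.52 and 0.08 in BL1 to BL4. MCL1 was the highest tumour for 21 of these 24 genes and for 9 of the 11 class II genes, where it was the highest for 11.9% of all genes.

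**Figure D4:**
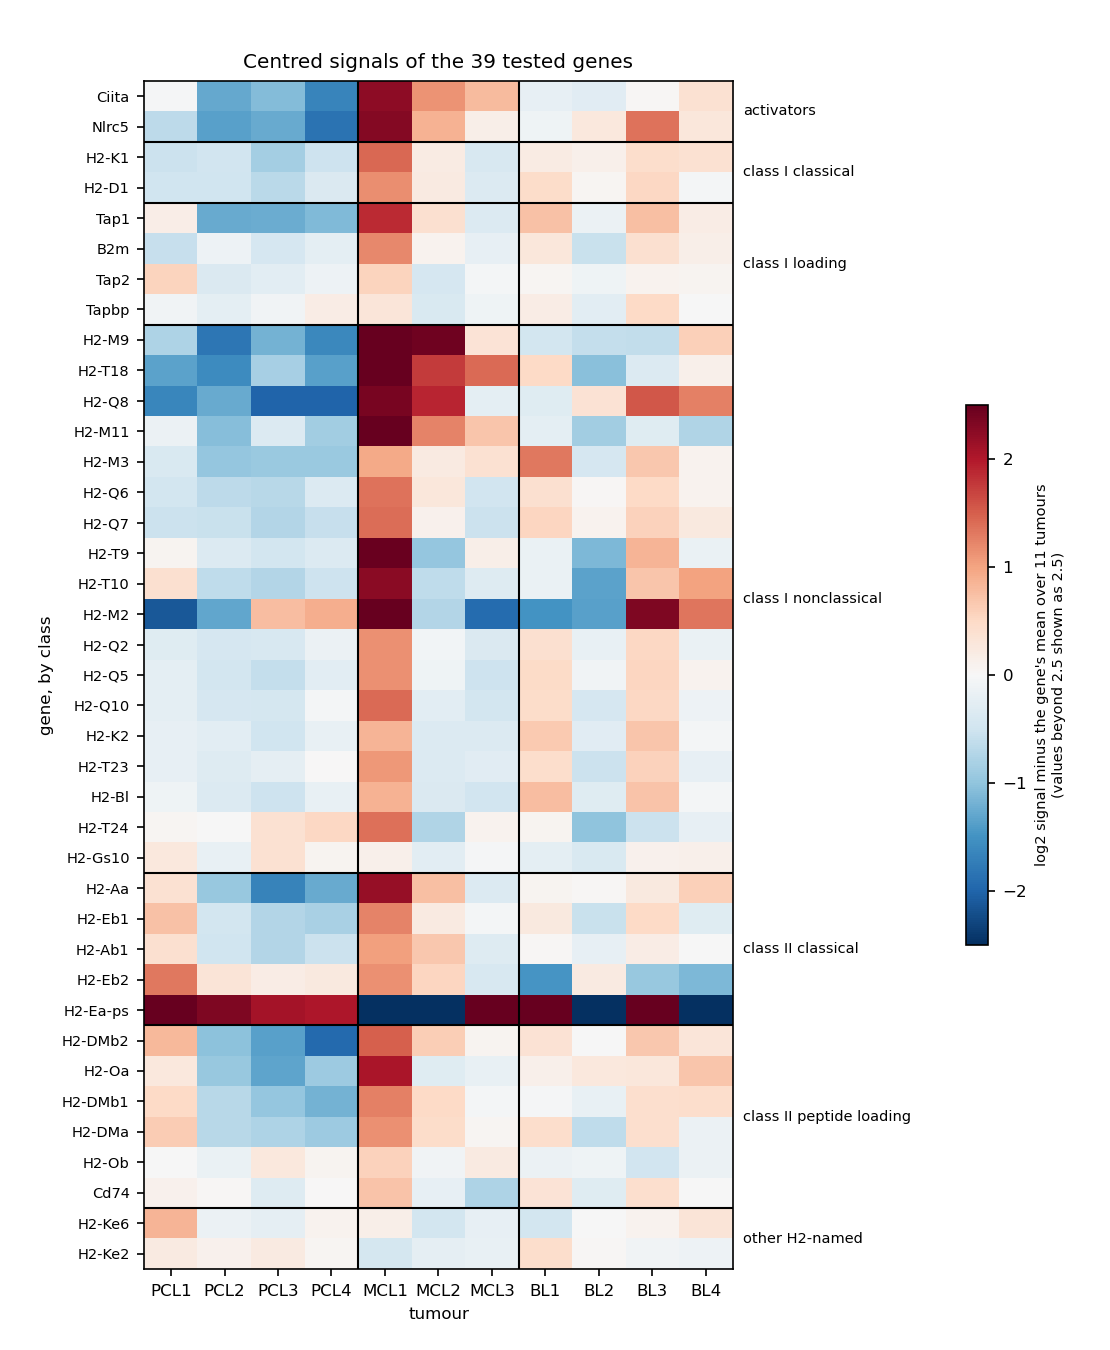
Log2 signal of each tested gene (rows, by class) minus its mean over the 11 tumours (columns), in colour from blue (lower) to red (higher). MCL1 is red in most rows, PCL2 to PCL4 are blue in most class II rows where PCL1 is not, and H2-Ea-ps is near background in 4 tumours.

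Marker lists of several cell types were examined in the same tumours. The macrophage list, cells that also carry class II molecules, was higher on average in PCL for 14 of 14 tested genes against both other types, with Cd14 (2.00, at the threshold) and Msr1 (2.06, adjusted p = 0.0314) called against MCL by limma (0 of 14 called against BL, 7 at an unadjusted p under 0.05). Its centred median was -1.08 in PCL1, 2.76 in PCL2, 1.53 in PCL3 and 1.90 in PCL4, against -1.95 to 0.14 in MCL and -0.62 to -0.01 in BL, and 9 to 14 of its genes were well above background per array. Its summed signal, in multiples of the array's 75th percentile, ranged over 2.37 to 27.4 in PCL, 1.71 to 4.67 in MCL and 2.83 to 8.07 in BL. The tumours with the most macrophage signal, PCL2 to PCL4, were thus those with the lowest class II signals. All 12 B lineage markers were well above background on every array, with only Blk called, lower in PCL than in MCL. Between PCL and BL 9 of these 12 were lower in PCL, with a median difference of -0.64 beside 0.09 for all genes, and 6 of 12 had an unadjusted p under 0.05 with 0 called. Of 10 plasma cell markers, 0 were called between PCL and MCL (3 at an unadjusted p under 0.05) and 5 had higher means in PCL. Centred medians of that list overlapped among types, at -0.21 to 0.62 in PCL, -0.39 to 0.43 in MCL and -0.88 to 0.06 in BL. Of 14 T and NK cell markers Cd4 and Prf1 were called, higher in MCL than in PCL and in BL. The centred medians of that list were -0.09 to 0.07 in PCL, -0.76 to 0.94 in MCL and -1.0 to 0.75 in BL. Of 8 dendritic cell markers 0 were called between PCL and MCL (2 at an unadjusted p under 0.05), and of 9 stromal and endothelial markers 0 were (1 at that level). Beside these unadjusted counts, 4918 of all 20181 genes were at that level between PCL and MCL and 3543 between PCL and BL. The calls of Cd14, Msr1, Blk, Cd4 and Prf1 between PCL and MCL were lost in 19, 12, 13, 10 and 9 of 23 alternatives. The part of these cells in the MHC signals was not tested.

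The signals of several targets followed those of their transactivator over the 11 tumours, which share the scaling of each array. The correlation of Ciita was 0.90 with H2-Aa (Spearman rho 0.83) and 0.85 with H2-Ab1 (rho 0.77). That of Nlrc5 was 0.90 with Tap1 (rho 0.84), 0.89 with H2-K1 (rho 0.85) and 0.74 with B2m (rho 0.64). In permutation tests (100000 resamples, 2-sided, adjusted over the 6 relations examined), the p-values of r were 0.00084 for H2-Aa, 0.00165 for H2-Ab1, 0.00084 for Tap1, 0.00084 for H2-K1 and 0.0093 for B2m, and those of rho were 0.00594, 0.011, 0.00594, 0.00594 and 0.048 in the same order. The correlation of Ciita with Cd74 did not pass (r = 0.24, rho = 0.14, adjusted permutation p = 0.489 and 0.694). Before adjustment the p-values of r were 0.00042, 0.0011, 0.00029, 0.0003, 0.00775 and 0.489 for H2-Aa, H2-Ab1, Tap1, H2-K1, B2m and Cd74.

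Such correlations, that of Cd74 apart, were uncommon but not confined to these pairs. Of 20180 other genes, 48 (0.238%) correlated with Ciita as closely as H2-Aa did, and 19 (0.0942%) with Nlrc5 as closely as Tap1 did, each target included. The same count was 172 (0.852%) for H2-Ab1 and 7467 (37%) for Cd74 with Ciita. With Nlrc5 it was 26 (0.129%) for H2-K1 and 425 (2.11%) for B2m. Without MCL1 and PCL4, the tumours farthest from the median of both transactivators, r was 0.77 for H2-Aa, 0.70 for H2-Ab1, 0.84 for H2-K1, 0.80 for Tap1, 0.56 for B2m and -0.25 for Cd74. The relations of H2-Ab1 (adjusted permutation p = 0.0534) and B2m (0.15) no longer passed over these 9 tumours, so both calls rest on the inclusion of MCL1 and PCL4, although fewer tumours also leave the test less able to pass. By Spearman's rho none of the 6 passed without them, the lowest adjusted permutation p being 0.0648. Each type has under 6 tumours, so r was not computed within a type. With every value centred on its type's mean, r was 0.90 for H2-Aa, 0.82 for H2-Ab1, 0.77 for H2-K1, 0.80 for Tap1, 0.60 for B2m and 0.59 for Cd74, of which B2m and Cd74 did not pass (adjusted permutation p = 0.0553 each). By Spearman's rho none of the 6 passed when centred, the lowest adjusted permutation p being 0.0539.

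**Figure D5:**
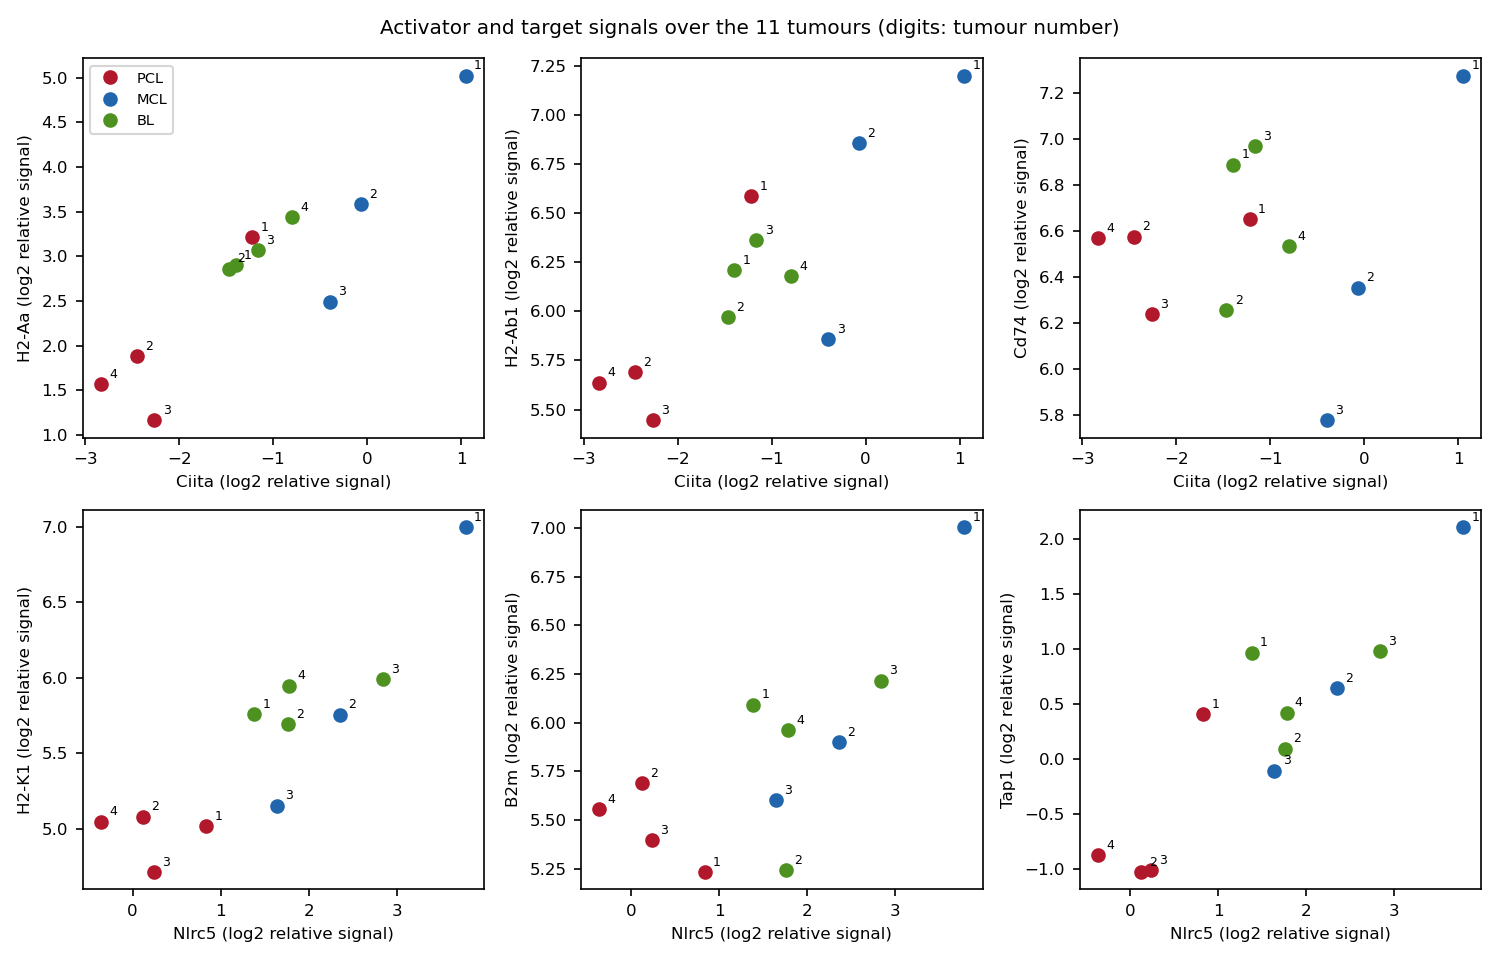
Log2 signal of a transactivator (x axis) against that of a target (y axis) in the 11 tumours, coloured by type and labelled with the tumour number. The points of Ciita with H2-Aa and of Nlrc5 with Tap1 and H2-K1 rise together, with MCL1 at the top right, whereas those of Ciita with Cd74 do not.

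Promoter windows from RefSeq (assembly GRCm38.p6, 300 bases around the start) were available for 33 of the 48 genes and are described here because the members are known to share promoter elements. The Y box core, CCAAT on either strand, was in the windows of 29 of the 33 genes (87.9%) and of 41.1% of all 27025 genes with a window. These 29 included 3 of 3 classical class II, 5 of 5 class II loading, 2 of 2 classical class I and 3 of 3 class I loading genes. The X box pattern (CCNAG, NNAC and NNATG in a row, either strand) was in those of 2 members, H2-DMb1 and H2-Ob, and of 0.229% of all genes. An interferon response pattern (GAAA, NN and GAAA in a row, either strand) was in those of 2 members, B2m and H2-T23, and of 3.99% of all genes. Related genes have related promoters, so the members are not independent, and a match of letters is not evidence of binding. Nor does the lack of a match show that an element is absent, since only these letter patterns were sought. The windows of H2-Aa (chr17:34287774-34288073, minus strand), H2-DMb1 (chr17:34152941-34153240, plus strand) and B2m (chr2:122147437-122147736, plus strand) are shown as examples. Of the patterns sought, H2-Aa matched the Y box core alone, H2-DMb1 also the X box pattern and B2m also the interferon pattern. Capitals mark these matches.
H2-Aa: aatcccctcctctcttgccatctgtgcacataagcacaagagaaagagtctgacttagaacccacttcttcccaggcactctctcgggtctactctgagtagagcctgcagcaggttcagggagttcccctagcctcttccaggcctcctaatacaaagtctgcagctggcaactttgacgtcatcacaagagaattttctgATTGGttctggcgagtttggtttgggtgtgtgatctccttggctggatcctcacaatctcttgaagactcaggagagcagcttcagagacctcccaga
H2-DMb1: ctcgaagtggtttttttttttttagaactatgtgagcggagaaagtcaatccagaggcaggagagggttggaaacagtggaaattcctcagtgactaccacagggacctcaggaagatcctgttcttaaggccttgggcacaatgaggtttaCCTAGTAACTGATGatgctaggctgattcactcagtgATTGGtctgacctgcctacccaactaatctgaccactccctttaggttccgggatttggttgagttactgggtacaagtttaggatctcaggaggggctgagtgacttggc
B2m: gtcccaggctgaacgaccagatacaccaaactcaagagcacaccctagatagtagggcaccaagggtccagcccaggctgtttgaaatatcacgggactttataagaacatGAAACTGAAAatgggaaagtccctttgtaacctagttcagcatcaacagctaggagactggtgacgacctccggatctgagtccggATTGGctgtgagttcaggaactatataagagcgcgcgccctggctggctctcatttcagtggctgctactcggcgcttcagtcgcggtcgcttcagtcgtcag

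Of 22 transcription factors and interferon signalling genes known to act on MHC genes, 2 were called between PCL and MCL. Of all genes, 6.94% were called there. At an unadjusted p under 0.05 there were 6 of the 22, beside 4918 of all 20181 genes. Spib, an Ets factor of B cells, had log2 signals of 4.02, 2.83, 3.39 and 2.78 in PCL, against 5.30, 5.36 and 5.31 in MCL and 4.53, 4.60, 5.25 and 5.15 in BL, with all PCL values below the rest. It fell in PCL relative to MCL (-2.06 ± 0.31, SE, adjusted p = 0.00813) and relative to BL (-1.63, adjusted p = 0.0447). Spi1, or PU.1, a related factor of myeloid and B cells, was higher in PCL than in MCL (1.38 ± 0.29, adjusted p = 0.0239). The Spib call against MCL held in all 23 alternatives, that against BL was lost in 15, among them leaving out any tumour other than PCL1, and that of Spi1 in 8, among them leaving out PCL2, PCL3, PCL4, MCL2 or MCL3. None of the X box proteins Rfx5, Rfxap and Rfxank was called. Jak1, a kinase of interferon signalling and the third largest difference of the list, was at 0.88 (adjusted p = 0.117). In PCL against BL the largest were Prdm1, which represses Ciita in plasma cells, at 1.68 (adjusted p = 0.141), Spib, and Irf8 at -1.23 (adjusted p = 0.113).

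Of 12 genes that prepare class I peptides or assist their loading, 1 was called between PCL and MCL, beside 6.94% of all genes. Of the 12 differences, 5 were above 0 and 7 below, and 3 had an unadjusted p under 0.05. Pdia3, a chaperone of the loading complex, had log2 signals of 2.24, 2.40, 2.63 and 2.00 in PCL, against 1.60, 0.98 and 1.53 in MCL and 1.09, 1.55, 1.25 and 0.96 in BL. All PCL values were the highest, with a difference of 0.95 ± 0.23 (SE, adjusted p = 0.0388) from MCL and 1.10 (adjusted p = 0.0529) from BL. The call was lost in 12 of 23 alternatives, with adjusted p-values up to 0.131, among them leaving out BL3 or any PCL or MCL tumour other than PCL1. The immunoproteasome subunit Psmb9, a gene next to Tap1, differed by -1.19 ± 0.43 from MCL (adjusted p = 0.127), and the chaperone Calr by 0.64 (adjusted p = 0.161). Of 13 genes of class II antigen processing 0 were called in any comparison. Between PCL and MCL 3 had an unadjusted p under 0.05, beside 4918 of all 20181 genes, and 11 of 13 were higher in PCL. The cathepsin gene Ctsl differed by 2.19 (adjusted p = 0.162), the cathepsin inhibitor Cst3 by 1.70 (adjusted p = 0.081) and Ctsh by -0.85 (adjusted p = 0.29).

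Class I-like genes outside H2 were tested for 11 of 16. All 11 differences between PCL and MCL were above 0, the opposite side from most members, where 52% of all genes were below 0. Of the 11, 1 had an unadjusted p under 0.05, beside 4918 of all 20181 genes. Several were smaller than their SE, such as Mr1 (0.04 ± 0.24) and Azgp1 (0.11 ± 0.24). Fcgrt, the neonatal Fc receptor, was called, with log2 signals of -4.87, -0.61, -1.58 and -1.65 in PCL, against -4.38, -7.21 and -6.29 in MCL and -5.34, -5.29, -3.69 and -5.13 in BL. PCL2 to PCL4 were above all others and PCL1 lay with the remaining tumours (difference from MCL 3.78 ± 0.98, SE, adjusted p = 0.049). That call was lost in 16 of 23 alternatives, with adjusted p-values up to 0.15, among them leaving out any tumour other than PCL1 or MCL1. Those 3 tumours also had the highest macrophage signal, and the part of macrophages in this difference was not tested. Hfe, of iron regulation, and Raet1c, an NKG2D ligand, differed by 1.43 (adjusted p = 0.251) and 1.40 (adjusted p = 0.461).

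H2-Ke2 and H2-Ke6 carry H2 names for their position and are not MHC molecules. H2-Ke2, now Pfdn6, a prefoldin subunit, had log2 signals of 3.67, 3.55, 3.69 and 3.51 in PCL, against 3.01, 3.23 and 3.26 in MCL and 3.89, 3.49, 3.36 and 3.32 in BL. H2-Ke6, a steroid dehydrogenase, had 3.76, 2.77, 2.67 and 3.00 in PCL, against 3.06, 2.45 and 2.69 in MCL and 2.45, 2.89, 3.00 and 3.23 in BL. Both had higher means in PCL than in MCL, by 0.43 (adjusted p = 0.165) and 0.32 (adjusted p = 0.553), the other direction from most tested members.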

How the data were processed

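Total RNA of 11 tumours (0.2 µg each, RNA integrity number 8 to 10) was labelled with Cy3 and hybridised to Agilent arrays of 43020 non-control spots. The deposited intensity values are Feature Extraction 10.7.3.1 output with mm9 positions, per the file headers. There, spatial and multiplicative detrending of the processed signal were on and the background correction setting was off. Mean and background signals were deposited beside the processed signal. On each array, 21.5% to 29.2% of spots were flagged as holding a surrogate value as processed signal, so the lowest signals need not be measured ones. The authors' log2 value table, with column medians of 7.25 to 7.26, ranks spots as the median signal does (Spearman 1); its scaling was not stated in the labels.

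Control spots and outlier spots were left out and spots of a probe averaged. From log2 of the processed signal, log2 of the array's 75th percentile (1072 to 1637 intensity units) was subtracted; 55.5% to 62.8% of spots were well above background and 0 saturated. Of the probes, 25296 passed a minimum of 3 arrays well above background, and the brightest probe stood for a gene. Genes were named through accession for 26581 probes, current symbol for 2597, synonym for 492 and the file's name for 9759. Array number limits precision. limma 3.58.1 in R 4.3.3 (lmFit, eBayes) fitted a mean per type to all 11 arrays, with Benjamini-Hochberg adjustment over 20181 genes; the fit was tested on simulated data. The pseudogene H2-K2 was counted with the nonclassical genes.

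Values in every tumour are given for Ciita, Nlrc5, Cd74, the classical chains, the loading genes, every other called member and, per class, the 3 others of widest range. The members and lists were chosen with earlier results of these data known. Alternatives covered background correction (normexp, offset 50), scaling, filters, probe choice, the authors' table, array weights, the variance prior, the arrays fitted, a block and leaving out each tumour; those for genes of the other lists were added after seeing the data. Slide could not be fitted, since each type has its own. The sequence of the Ciita probe is not reported here.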

Additional observations from a re-analysis of the deposited data

Results flagged for a closer look

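Of 78 groups of 4 tumours (39 genes in PCL and in BL), 8 held a tumour whose gap to the nearest other passed Dixon's 95% critical value, where chance flags about 5% of groups. In 5 of them PCL1 was above the other PCL tumours. H2-DMa had a log2 signal of 2.47 in PCL1 and 0.93 to 1.15 in the others. Tap1 had 0.40 in PCL1 and -1.03 to -0.88 in the others. H2-Ea-ps had 1.68 in PCL1 and -0.59 to -0.29 in the others, H2-Eb2 had 1.34 and 0.20 to 0.34, and H2-M3 had 0.40 and -0.18 to -0.13. H2-Q7 had 4.25 in PCL3 and 4.43 to 4.46 in the other PCL tumours. In BL, H2-M9 had -5.49 in BL4 and -6.71 to -6.54 in the others, and H2-Ob had 1.97 in BL3 and 2.30 to 2.33 in the others.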

How the results depend on the processing

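Counts and differences were recomputed under 12 alternatives to the processing and the fit and with each of the 11 tumours left out, except that the stricter filter gave no value for H2-M9, H2-T18, H2-M2 and Raet1c and that a fit of 2 types gave no F test. The correlations were recomputed under 4 alternatives. Members called between PCL and MCL numbered 1 with normexp background correction, 12 with array weights and 1 (without PCL2) to 12 (without PCL1) on leaving out a tumour, against 6. Genes called there numbered 197 with normexp, 697 with no filter on dim probes, 4424 with array weights, 742 with only the 2 types fitted and 333 (without PCL2) to 2463 (without PCL1) on leaving out a tumour. Between PCL and BL members called numbered 3 with the array's median in place of its 75th percentile, 6 with weights and 0 to 1 (without PCL1 or MCL3) on leaving out a tumour, and genes called 13 with normexp, 531 with the median, 86 with no filter, 2183 with weights and 5 (without PCL2) to 1074 (without PCL1). Median scaling shifted the median of all genes between PCL and BL to -0.17 and turned 92 higher and 41 lower calls into 109 and 422. Between MCL and BL members called numbered 0 with normexp or with only the 2 types fitted, 1 with the median or with 6 arrays above background, and 1 (without BL2 or BL4) to 3 (without PCL1), and genes called 64 with normexp, 746 with quantile scaling, 300 with the median, 680 in the authors' table, 291 with the 2 types and 687 (without MCL1) to 1373 (without PCL1). The F test called 0 members with normexp, 12 with weights and 1 (without PCL2) to 8 (without PCL1), and 129 genes with normexp, 1050 with no filter, 4763 with weights and 717 (without PCL2) to 2827 (without PCL1).

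Replicate numbers are array positions and could not be shown to pair the samples: deviations of same-numbered arrays correlated between -0.046 and 0.172, over 0.1 in 3 of 10 pairs, although 8 of 11 arrays correlated best with their own number. With the number as a replicate block, genes called numbered 391 between PCL and MCL, 64 between PCL and BL, 380 between MCL and BL and 341 in the F test, which then called 1 member. Under it H2-Q8 (adjusted p = 0.0795) and Nlrc5 (0.089) were not called between PCL and MCL, and Tapbp differed by -0.019.

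Differences near 0 changed sign. Between PCL and MCL, Cd74 was -0.023 with normexp and -0.31 to 0.44 on leaving out a tumour, and Tapbp was -0.066 with normexp, -0.045 with quantile scaling, -0.017 with the median, -0.054 in the authors' table and -0.16 to 0.18 on leaving out a tumour. Leaving out a tumour gave -0.31 to 0.18 for Tap2, -0.32 to 0.46 for H2-Eb2, -1.58 to 0.15 for H2-T9, -1.33 to 0.11 for H2-T10, -0.87 to 0.068 for H2-Q10 and -1.86 to 0.89 for H2-M2, which was 0.13 with normexp and 0.43 with weights. H2-M11 between PCL and BL ranged over -0.22 to 0.087, H2-T18 there was 0.058 with normexp, and H2-Q8 between MCL and BL was -0.13 with weights. Correlations without MCL1 and PCL4 were 0.70 for Ciita and H2-Ab1, -0.25 for Ciita and Cd74 and 0.56 for Nlrc5 and B2m, the last 0.60 when centred on type. The cause was not tested. Dim probes such as those of H2-M9 and H2-T18 are limited by signal over background.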
